A study of Mus musculus with 8 samples.

Results

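The peaks described here are the GATA2 binding regions called in 3T3-L1, a mouse fibroblast line committed to the fat lineage and used as a preadipocyte model. The deposited 3T3-L1 list held 2445 rows. All rows were taken except 454 that lay in 3 dense regions, given with starts counted from 0 as in the deposited file: 60 at chr10:107213416-107256721, 384 at chr10:117281250-117790202 and 10 at chr17:39843355-39848806. That left 1991 peaks, out of 4002 rows in the lists of both cell lines of the study. The other line was C3H10T1/2, a multipotent mouse fibroblast line whose list held 1557 rows.

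The labels give 2 GATA2 ChIP and 2 input libraries for 3T3-L1, made from cells of passages 4 to 6 from ATCC, with no treatment, time point or genetic change named. Each immunoprecipitation used a GATA2 antibody on sonicated chromatin, the input had no antibody, and DNA from individual immunoprecipitations was pooled before library preparation. 3T3-L1 is a single established line, and 1 peak list stands for it, so no value below has a replicate. The intervals given are 95% intervals for counting error only, and no marker of cell identity was analysed here.

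GATA2 is a zinc finger transcription factor that binds DNA at the short sequence GATA with preferred flanking bases. It maintains blood stem and precursor cells, and in the fat lineage it is expressed in preadipocytes and holds back their maturation. GATA factors often act from enhancers that lie far from the start of the genes they control, so a nearby gene is not necessarily a controlled one.

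Sequences of the sites could be read where a peak reached a promoter. RefSeq promoter windows of GRCm38.p6, from 250 bases before to 50 bases after a gene start, were matched for 17274 of the 21631 protein-coding genes (79.9%). Of the 1991 peaks, 36 overlapped a window, touching 38 windows and 29 coding genes. All distinct windows add up to 9845100 bases, counting overlaps between windows more than once, beside a chromosome span of 2600 Mb. No test was run on this share. The following sequences are the parts of windows covered by a peak at genes where the peak lay entirely before the start. They are shown because 6 of them hold a GATA match and the last holds none, 5′ to 3′ on the gene's strand, with each match in capitals.
Ndufa9: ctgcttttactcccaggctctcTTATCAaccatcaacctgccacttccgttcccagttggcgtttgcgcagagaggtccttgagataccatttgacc
Frk: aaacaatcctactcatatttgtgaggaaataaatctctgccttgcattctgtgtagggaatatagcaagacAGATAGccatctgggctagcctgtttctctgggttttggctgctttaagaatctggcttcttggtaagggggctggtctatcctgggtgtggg
Zfp763: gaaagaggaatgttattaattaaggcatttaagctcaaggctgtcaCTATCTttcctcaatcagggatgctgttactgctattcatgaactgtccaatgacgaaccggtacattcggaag
Arid1a: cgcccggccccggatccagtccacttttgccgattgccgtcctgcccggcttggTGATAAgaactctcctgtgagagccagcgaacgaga
Sumf2: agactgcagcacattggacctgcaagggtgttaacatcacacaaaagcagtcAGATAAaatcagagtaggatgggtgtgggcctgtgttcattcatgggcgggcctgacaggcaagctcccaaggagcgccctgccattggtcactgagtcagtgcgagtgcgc
Svep1: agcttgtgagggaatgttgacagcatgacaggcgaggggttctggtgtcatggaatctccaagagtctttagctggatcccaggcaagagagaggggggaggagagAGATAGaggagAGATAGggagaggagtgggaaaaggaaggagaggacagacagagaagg
Zc3h6: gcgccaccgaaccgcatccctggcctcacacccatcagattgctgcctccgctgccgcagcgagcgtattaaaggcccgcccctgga

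The sites printed lie at chr6:126849168-126849264 for Ndufa9, a gene of mitochondrial complex I, at chr10:34483231-34483394 for the tyrosine kinase gene Frk, at chr17:33033412-33033531 for the zinc finger gene Zfp763 and at chr4:133756819-133756908 for Arid1a, a chromatin remodelling subunit gene. Those of Sumf2, Svep1 and Zc3h6 lie at chr5:129846804-129846967, chr4:58206681-58206845 and chr2:128967182-128967268. Coordinates are mm10. Ndufa9, Zfp763 and Arid1a are on the minus strand, as is Svep1, and the others on the plus strand. The motif had 4 spellings on either strand: AGATAA with its variant ending in G, spelled AGATAG, and TGATAA with its variant ending in G, spelled TGATAG. Overlapping matches on a strand were counted apart.

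GATA letters were more common under the peaks than elsewhere in the same promoters. Of the 38 windows touched by a peak, 25 held at least 1 match (65.8%, 48.6 to 80.4), against 9773 of all 32817 distinct windows (29.8%). In the 33 windows that held the peak's centre the share was 24 (72.7%, 54.5 to 86.7). The bases covered by peaks held 28 matches in 4925 bases, or 5.69 matches per kb. The uncovered rest of the same windows held 3 matches in 6475 bases, or 0.463 per kb, and all windows together held 1.32 per kb. A few peaks touch a pair of windows, so some bases count more than once. These letters were not used to choose the peaks, and no test was run on the rates.

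Matches lay close to the middle of the peaks. In the 23 windows with a match under the peak, the match nearest to the peak's centre was a median of 14.0 bp away (0 to 50 bp). It was 8 bp away at Irf9, Frk and Hdac7, 12 bp at Arid1a and Zfp763, 24 bp at Ndufa9 and 26 bp at Sumf2. The peak centre lay before the start in 33 of the 38 windows and after it in 5, in windows that themselves reach 250 bases before and 50 bases after the start.

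Other motifs in the touched windows were closer to their shares over all windows, or rested on few windows. The AP-1 letters TGACTCA were in 4 of 38 windows (10.5%, 2.94 to 24.8) against 5.2% of all. The RUNX letters TGTGGT were in 4 (10.5%) against 16.8%, and the E-box CACGTG was in 2 (5.26%) against 7.15%. CCAAT was in 20 (52.6%, 35.8 to 69.0) against 37.4%. These 4 were searched after the GATA result was known. No match says only that the letters are not in the window, and peaks outside promoters have no sequence analysed here.

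Peaks were narrow. The median width was 144 bp, the quartiles were 108 and 196 bp, and the range was 50 to 566 bp, for a total of 317 kb. Widths of 100 to 149 bp were the most common class with 683 peaks (34.3%), while 75 peaks (3.77%) were 300 bp or wider. A single width, 81 bp, recurred in 106 peaks (5.32%), and the next most common width, 130 bp, in 31. Only 21 peaks were narrower than 81 bp. No source used here names the setting behind that edge.

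**Figure D1:**
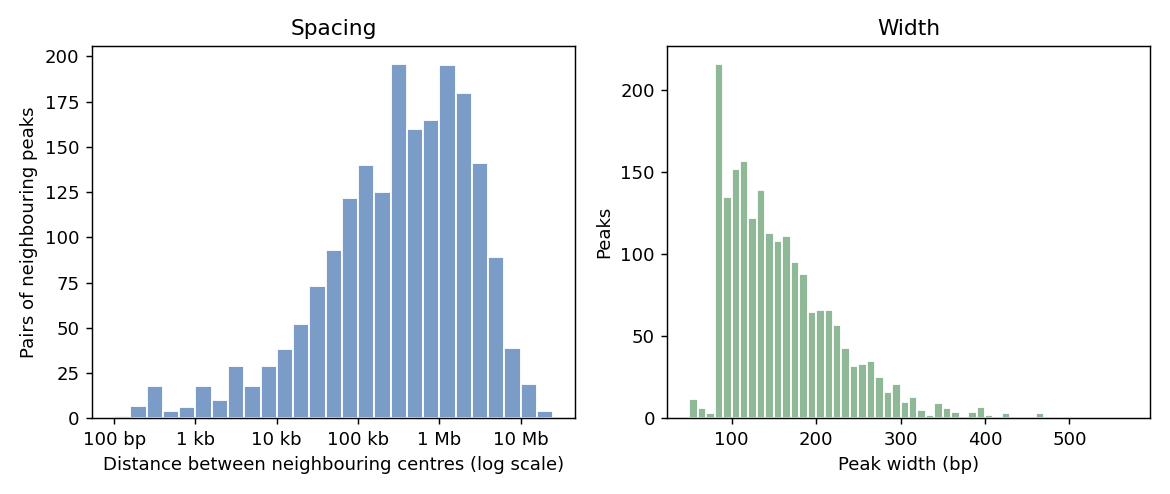
Left, distances between neighbouring peak centres on a log scale (pairs of neighbouring peaks per bar); right, peak widths in bp (peaks per bar). Most neighbours are 10 kb to 10 Mb apart, with a median of 406 kb, and widths pile up just above 80 bp with a tail to 566 bp.

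Width hardly varied with position. The median was 155 bp for the 67 peaks within 1 kb of a gene boundary, 142 bp for the 276 at 1 to 10 kb, 144.5 bp for the 984 at 10 to 100 kb and 144 bp for the 664 farther away. Peaks inside gene bodies had a median of 141 bp and those outside 147 bp. The interquartile ranges of these classes overlap almost entirely.

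The 10 widest peaks were 427 to 566 bp wide and lay 4.26 kb to 1.46 Mb from the nearest coding gene. None was inside a protein-coding gene, where 39.0% of all peaks lie, and 2 of them overlapped a C3H10T1/2 peak, as 27.0% of all peaks did. The widest, 566 bp at chr10:118621570-118622135, lay 176 kb from Ifng, the interferon gamma gene. A 536 bp peak at chr2:46581623-46582158 lay 1.46 Mb from Zeb2, a repressor of epithelial genes, in a stretch with no coding gene.

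A 489 bp peak was 28.9 kb from Enpp2, which encodes autotaxin, an enzyme secreted by fat cells that makes lysophosphatidic acid. Peaks of 464 bp each were 11.6 kb from Hgf, the hepatocyte growth factor gene, and 8.75 kb from Ptn, the pleiotrophin gene. A 468 bp peak was 4.26 kb from the chemokine gene Cxcl15, a 448 bp peak 11.0 kb from the protocadherin gene Pcdh7, and a 434 bp peak 35.3 kb from the cadherin gene Cdh11. The remaining members of the 10 were a 456 bp peak 197 kb from Cxxc4 and a 427 bp peak 108 kb from Gorab.

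The narrowest peaks, 50 bp wide, lay inside Gsn, which encodes the actin-severing protein gelsolin, inside the kinase gene Cdk8 and 22.4 kb from Ly6c2. The next were 51 bp near Gdi2 and 52 bp inside E030030I06Rik.

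Peaks were spread over all 20 chromosomes of the list, unevenly. The density was 0.766 peaks per Mb overall (exact Poisson interval 0.732 to 0.8). Chromosome 15 had the highest, with 124 peaks or 1.19 per Mb (0.994 to 1.42), followed by chromosome 2 with 196 peaks or 1.1 per Mb (0.948 to 1.26). Chromosome X had the lowest, with 60 peaks or 0.352 per Mb (0.268 to 0.453), followed by chromosome 12 with 52 peaks or 0.433 per Mb (0.324 to 0.568).

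**Figure D2:**
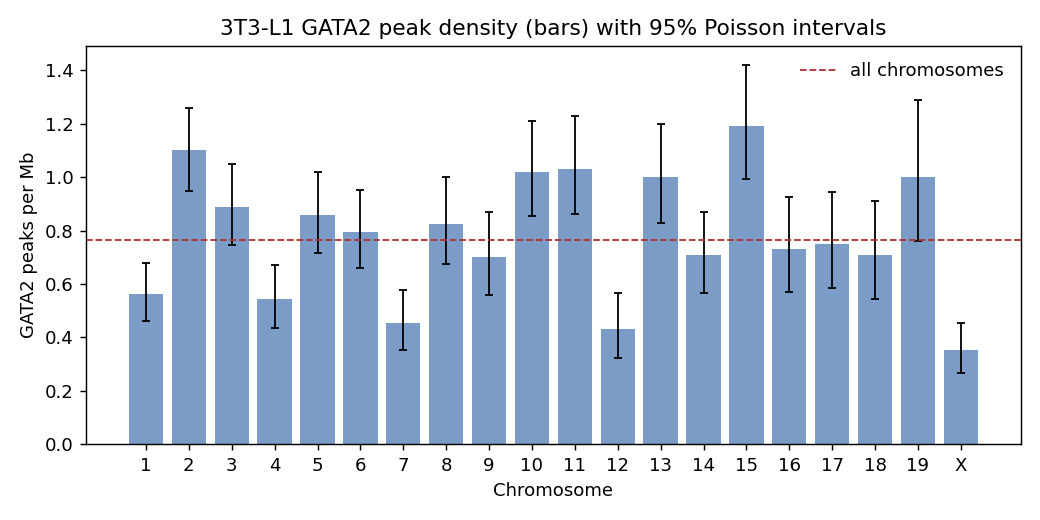
Peaks per Mb of each chromosome (bars, axis from 0) with exact 95% Poisson intervals; the dashed line is the density over all chromosomes, 0.766 per Mb. Intervals of chromosomes 2, 10, 11, 13 and 15 lie above the line and those of 1, 4, 7, 12 and X below it.

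Intervals lay above the overall density for 5 chromosomes and below it for 5. Beside gene density the picture was mixed. Chromosome 7 had the most genes per Mb, 14.0, and 66 peaks or 0.454 per Mb (0.351 to 0.578), while chromosome 15 had 7.48 genes per Mb. Chromosome 11 was high in both, with 13.2 genes and 1.03 peaks per Mb. Chromosome 19 had 12.2 genes and 1.0 peaks per Mb, with an interval (0.76 to 1.29) that includes the density over all chromosomes. X and chromosome 12, lowest in peaks, also had the fewest genes per Mb, 5.66 each. The X peaks also overlapped a C3H10T1/2 peak in the lowest share, 11.7%, against 27.0% over all peaks and 40.0% on chromosome 4. Copy number and mappable length differ between chromosomes in cultured lines. Their part in the densities was not tested.

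The distance from genes was measured to the boundaries of protein-coding genes in the same RefSeq annotation, from a peak's centre. The median distance to the nearest boundary was 50 kb (quartiles 16.5 and 143 kb). Within 1 kb lay 67 peaks (3.37%, 2.62 to 4.25), where 3.01% of the chromosome span lies. Within 10 kb lay 343 (17.2%, 15.6 to 19.0), where 21.0% of the span lies. So the share near boundaries was close to the span at 1 kb and under it at 10 kb. Both ends of a gene count as boundaries, so gene starts are not set apart in these shares.

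Gene bodies held 777 peaks (39.0%, 36.9 to 41.2), beside 39.6% of the span. The 1214 peaks outside gene bodies lay a median of 67.5 kb from the nearest gene (quartiles 19.8 and 188 kb). Beyond 100 kb of any gene lay 498 peaks (25%, 23.1 to 27.0), beside 28.4% of the span. The shortfall grew with distance: 70 peaks (3.52%, 2.75 to 4.42) lay beyond 500 kb, beside 8.85% of the span, and 12 (0.603%, 0.312 to 1.05) beyond 1000 kb, beside 2.84%. The span includes assembly gaps and repeats in which peaks may not be callable, and their part in this was not tested.

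**Figure D3:**
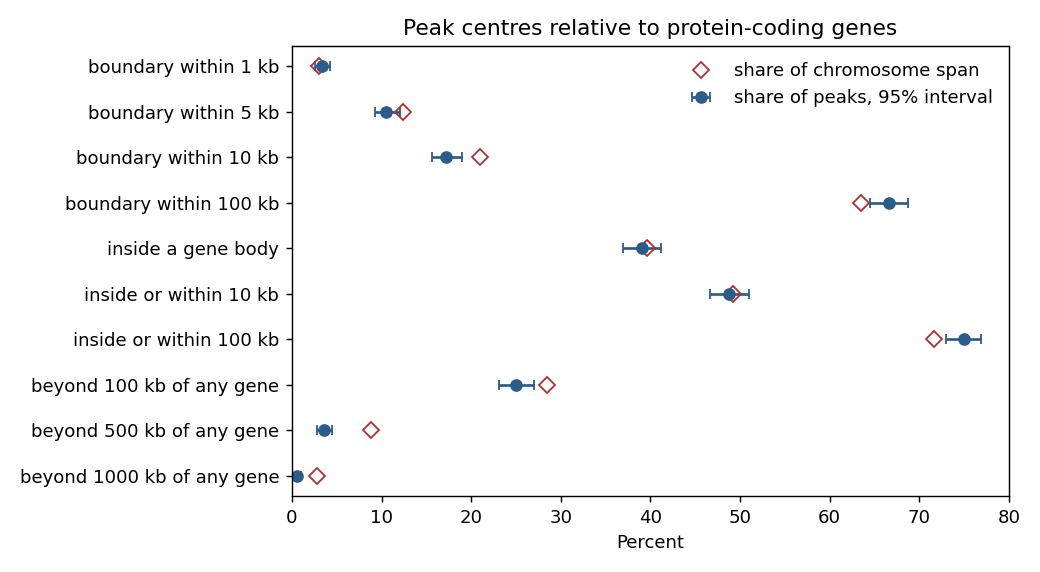
Share of peak centres (filled, with exact 95% intervals) and share of the chromosome span (open diamonds), in percent, in classes of distance from protein-coding genes. Peaks and span nearly coincide inside gene bodies (39.0% and 39.6%), and peaks fall short of the span beyond 500 kb (3.52% and 8.85%).

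The peaks farthest from any coding gene were few and partly grouped. The farthest was at chr8:7011940-7012094, 1.61 Mb from Efnb2, an ephrin ligand gene. Another, at chr7:94602676-94602774, was 1.42 Mb from Gm15501. The other 3 of the 5 farthest lay 1.4 to 1.47 Mb from Zeb2 on chromosome 2, and the second widest peak of the list is one of them.

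At the other end, 15 peaks had centres 4 to 90 bp from a gene boundary. Of these 15, 12 also overlapped a C3H10T1/2 peak, beside 27.0% of all peaks. The closest were at Irf9, an interferon response factor gene (4 bp), Tsn (8 bp), the E protein gene Tcf3 (11 bp), Fbl, the nucleolar methyltransferase fibrillarin (23 bp), and Ift20, a ciliary transport gene (35 bp). Next were Psat1 of serine synthesis (36 bp), Wsb1 (37 bp), Maoa, a monoamine oxidase gene (44 bp), and Got1, a transaminase gene (56 bp). Galnt15, Cstad, Ndufa9, Stk40, Frk and Zfp763 followed at 66 to 90 bp. Fbl, Maoa and Frk were the 3 whose peak did not overlap one of C3H10T1/2.

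The overlap with C3H10T1/2 differed by position. Of the 67 peaks within 1 kb of a boundary, 40 overlapped a C3H10T1/2 peak (59.7%, 47.0 to 71.5), beside 27.0% of all peaks. Of the 664 with no boundary within 100 kb, 148 did (22.3%, 19.2 to 25.6). Inside and outside gene bodies the shares were 29.3% and 25.5%. The intervals of the first pair do not overlap, and those of the second do.

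Neighbouring peaks were usually far apart. Centres of neighbours were a median of 406 kb apart (quartiles 89.4 and 1510 kb), over 1971 pairs. Another peak lay within 20 kb of 384 peaks (19.3%, 17.6 to 21.1), within 1 kb of 71 (3.57%) and within 1000 kb of 1712 (86.0%). The longest stretch without a peak was 23.8 Mb on chromosome X, from 103287180 to 127104435, over 77 coding genes. Of the 5 stretches over 15 Mb, the one outside X was 16.5 Mb on chromosome 1.

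Runs of peaks with gaps of at most 20 kb were short once the dense regions were set aside. Of 1783 runs, 1605 were single peaks and 158 held 2, leaving 14 runs of 3, 4 of 4 and 2 of 6. The 70 peaks in runs of 3 or more had a median width of 146 bp and overlapped a C3H10T1/2 peak in 14 cases (20%, 11.4 to 31.3), an interval that includes the 27.0% of all peaks.

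One run of 6 covered 8.58 kb at chr10:118613554-118622135, 168 to 176 kb from Ifng. It holds the widest peak, and its widths range from 96 to 566 bp with a median of 197 bp. None of its peaks overlapped a C3H10T1/2 peak, and it begins 823 kb above the larger dense region that was left out of chromosome 10. All 6 members within 1 Mb of that region belong to it. Around the other dense region of chromosome 10 there were 3 members within 1 Mb, the nearest 193 kb away, and around that of chromosome 17 there were 0, the nearest 3400 kb away. Whether the run near Ifng belongs with the dense region was not tested.

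The other run of 6 lay inside Cwc22, a splicing factor gene, over 26.8 kb, and a run of 4 over 8.65 kb lay 1.51 to 10.1 kb from the same gene. Their median widths, 118 and 93 bp, were below that of all peaks. Further runs of 4 lay beside Cxcl15 (3.55 kb), between Clec2d and Cd69, a lectin-like receptor pair of lymphocytes (15.7 kb), and inside Hdac9, a histone deacetylase gene (35.1 kb). Runs of 3 named by the same ranking lay 16.1 to 18.1 kb from Tmem26, 36.8 to 44.9 kb from Fstl1, a secreted glycoprotein gene, inside Syn3 and 246 to 258 kb from Zfp608.

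On a scale of 1 Mb the densest window held 12 peaks, on chromosome 10 from 38 to 39 Mb. Its nearest genes were Rfpl4b and the laminin gene Lama4, and 6 of the 12 peaks overlapped a C3H10T1/2 peak. Chromosome 2 had a window with 10 peaks from 77 to 78 Mb, with Cwc22 as nearest gene, and another with 10 from 148 to 149 Mb. The nearest genes of the latter were Sstr4, Thbd, Cd93, Nxt1 and Cst3. Of these, Thbd, the thrombomodulin gene, and Cd93 are expressed on endothelium. The window on chromosome 16 from 30 to 31 Mb held 9 peaks. Its nearest genes were Hes1, the Notch target repressor, Atp13a3, Tmem44 and Xxylt1. The window on chromosome 2 from 137 to 138 Mb also held 9, with Jag1, a Notch ligand gene, and Btbd3 as nearest genes. Jag1 itself had 1 peak within 100 kb, at 84.4 kb. The window on chromosome 3 from 138 to 139 Mb held 8 peaks, of which 0 overlapped a C3H10T1/2 peak. Their nearest genes were alcohol dehydrogenase genes, Eif4e and Tspan5.

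Across the genome, 2994 of the 21631 coding genes had a peak centre inside or within 100 kb (13.8%), 850 inside or within 10 kb (3.93%) and 598 inside the body (2.76%). Most genes were near a single peak: 534 had 2 or more within 100 kb and 56 had 4 or more. The peaks had 1330 distinct nearest genes.

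The genes with most peaks in the body were mostly long. Lrmda, a melanocyte differentiation gene of 1.04 Mb, had 8, of which 1 overlapped a C3H10T1/2 peak. Sugct, a mitochondrial CoA-transferase gene of 0.837 Mb, had 7, and Macrod2 of 2.0 Mb had 6. Cwc22 had 6 in 65.2 kb, and it was the exception in length.

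The next by count had 5 or 4 body peaks. They were Pde4d, a cAMP phosphodiesterase gene, Cdk14, a cyclin-dependent kinase gene, Col14a1, which encodes a collagen that sits on fibril surfaces, the dynamin gene Dnm3 and the vesicle transport gene Scfd2, which had 4. In the 7 peaks of Sugct, neighbours were as close as the pair at chr13:17000034-17000253 and chr13:17000418-17000530. All 7 lay in one part of the gene, between 17000034 and 17142070.

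**Figure D4:**
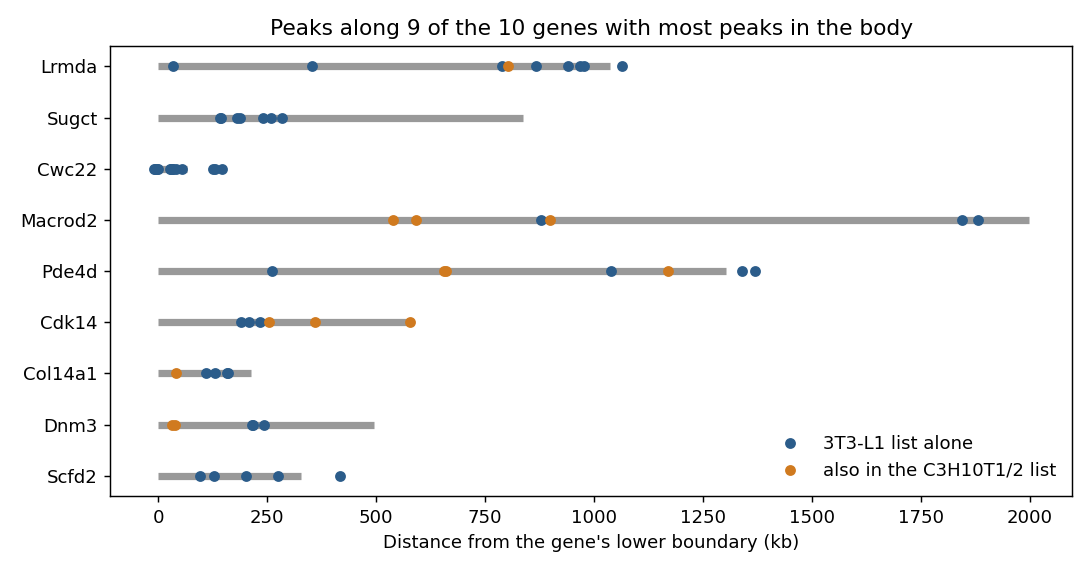
Peak positions (points) along 9 of the 10 genes with most peaks in the body (grey bars), in kb from each gene's lower boundary, with peaks up to 100 kb outside the body included. Orange points overlap a C3H10T1/2 peak; Cwc22 packs 13 points around a 65.2 kb body, while Macrod2 has 6 along 2.0 Mb.

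Gene length went with having a body peak. The median length was 17.3 kb over all coding genes, 138 kb over genes with a peak in the body, 294 kb over the 115 with 2 or more and 564 kb over the 16 with 4 or more. The share with a body peak went from 0.142% of genes under 10 kb to 12.5% (11.0 to 14.0) of those of 100 to 300 kb and 23.0% (19.5 to 26.7) of longer ones. Per Mb of gene body the range was narrower, from 0.34 peaks in the shortest class to 0.958 at 100 to 300 kb and 0.734 above that.

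Counted within 100 kb, Cwc22 was first with 13 peaks, 0 of C3H10T1/2 lying there. Lrmda had 9. Zfp385b had 8, all of them part of the Cwc22 set. Sugct and Pde4d had 7 each. Cxcl1 and Cxcl2 also had 7, and their neighbours Cxcl15, Cxcl3, Cxcl5, Pf4 and Ppbp also had 7, of which 6 are shared by both groups. Macrod2 and Cdk14 had 6 each. Adh6a and Adh6b also had 6, with 0 of C3H10T1/2 within 100 kb. Cd93 had 6, and no peak among these overlapped a C3H10T1/2 peak. The C3H10T1/2 list had 3 separate peaks within 100 kb of Cd93.

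Gene families were formed from symbols with the same letters before the first digit, for the 285 stems with at least 10 coding members. No peak lay within 100 kb of any member in 41 of them. By number of distinct peaks, the first were the predicted Gm genes with 70 peaks (69 of 1094 genes, 6.31%), the solute carriers Slc with 62 (63 of 375, 16.8%), Tmem with 43, the zinc fingers Zfp with 36 (29 of 397, 7.3%), Ccdc with 35 and Fam with 32. Most of these are large families. Over all coding genes, 13.8% had a peak within 100 kb.

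The collagens were the smallest family among the first 10. Of 44 Col genes, 16 had a peak within 100 kb (36.4%), beside 13.8% of all coding genes. Within 10 kb 7 had one (15.9%), beside 3.93%. The Col genes had 28 distinct peaks, 16 of them in gene bodies. The symbol stem Rab had 21 peaks (16 of 69 genes, 23.2%), Cd 20 (11 of 100, 11.0%) and Rnf 15 (15 of 83, 18.1%). A stem can take in genes of other kinds.

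Further families were chosen after their values were seen, and are set beside the same 13.8% of all coding genes. Cxcl chemokines had 7 of 12 genes (58.3%) with 10 peaks, Tcf 7 of 13 (53.8%), semaphorins 7 of 20 (35.0%) with 12 peaks and phosphodiesterases 8 of 26 (30.8%) with 15. A count of genes can rest on a single peak in a cluster. All 11 Hoxa genes had the same peak, at chr6:52168261-52168432, within 100 kb, and 10 of 53 keratin genes and 6 of 25 Ccl genes were also each reached by 1 peak. The large chemosensory families were low, with 18 of 1110 olfactory receptor genes (1.62%) and 3 of 355 vomeronasal genes (0.845%). The 19 Wnt ligand genes had 0, but a family of this size is too small to be called low beside 13.8%.

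Gene lists by role were then read against the 13.8% of all coding genes. Genes are not independent of one another here, since neighbours share peaks and long genes offer more room, and nothing is claimed to be particular to a list. The lists with the highest shares within 100 kb were cytokines and chemokines with 18 of 40 genes (45.0%, 29.3 to 61.5), growth factors with 14 of 33 (42.4%, 25.5 to 60.8) and extracellular matrix with 21 of 52 (40.4%, 27.0 to 54.9). The order changed within 10 kb, where the share of all coding genes was 3.93%. There GATA factors and cofactors (29.2%, 12.6 to 51.1) and adipogenic regulators (21.2%, 8.98 to 38.9) were highest. Cytokines and chemokines had 12.5% (4.19 to 26.8) within 10 kb. Ribosomal protein genes were lowest, with 5 of 69 (7.25%, 2.39 to 16.1), and synapse genes, which are long (median 111 kb), had 6 of 40 (15%, 5.71 to 29.8).

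**Figure D5:**
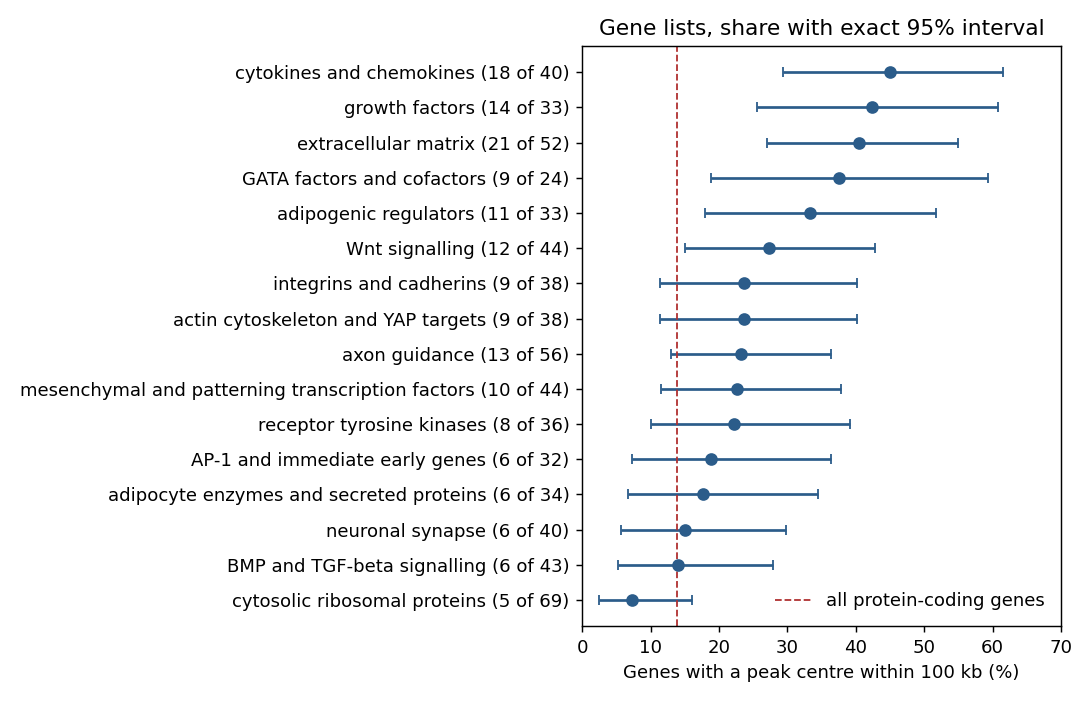
Percent of the genes in each list that lie within 100 kb of a peak centre, with exact 95% intervals; the dashed line is the 13.8% of all protein-coding genes. Cytokines, growth factors and matrix genes lie above 40%, and ribosomal protein genes at 7.25%.

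Growth factor genes, whose products signal to receptors on other cells, had 27 distinct peaks and 4 genes with a body peak. Ptn had 4 peaks in a row, 8.75, 22.3, 70.6 and 80.3 kb away, of which the outer 2 overlapped a C3H10T1/2 peak. Those at 22.3, 70.6 and 80.3 kb had Dgki, not Ptn, as their nearest gene. Hgf had 3 peaks, at 11.6, 34.8 and 80.2 kb, with widths of 464, 196 and 426 bp.

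Nrg1, a ligand of ErbB receptors, had peaks of 389 and 290 bp inside and 1 at 57.4 kb. Angpt1, the ligand of the endothelial receptor Tek, had 2 inside, and Kitl, the stem cell factor gene, had 1 inside. Igf1 had peaks at 32.9 and 37.0 kb, and Fgf10, which encodes a mesenchymal growth factor, at 22.7 and 58.4 kb. Pdgfc, Ereg, Angpt2, Vegfb, Vegfc and Vegfd had their nearest peak 19.5 to 83.9 kb away.

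The receptor tyrosine kinases had 8 of 36 genes with a peak within 100 kb (22.2%, 10.1 to 39.2). Egfr, the receptor of epidermal growth factors, had 2 peaks inside, at chr11:16854250-16854330 and chr11:16895940-16896070. Tek and Alk had 1 inside each. The nearest peaks of Fgfr2, Mst1r, Csf1r, Ryk and Ddr2 were 32.6 to 89.0 kb away.

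Among cytokines and chemokines, 18 genes shared 16 distinct peaks, so the count of genes leans on clusters. Peaks lay inside Cxcl9, an interferon-induced chemokine gene, and inside Il15, a lymphocyte growth cytokine gene, both overlapping a C3H10T1/2 peak. Cxcl5 had a peak 0.943 kb away, Cxcl15 one at 1.58 kb and Cxcl2 one at 2.42 kb. A single peak, chr11:82078557-82078683, was the nearest for Ccl11, Ccl7, Ccl8 and Ccl2, at 15.7 to 41.2 kb. Csf3 had a peak at 17.8 kb, Lif at 25.5 kb, Osm at 57.0 kb and Csf1 at 86.6 kb.

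Axon guidance genes, which also act in vessels and connective tissue, had 13 of 56 genes with a peak (23.2%, 13.0 to 36.4), and 8 of them had one in the body. Sema3a, a secreted repellent gene, had 5, at 83.5 and 2.68 kb and 3 inside. Epha4, an ephrin receptor gene, had 3 inside. Ntn1, Plxna4, Sema3c, Sema3f, Unc5b and Unc5c had 1 inside each. The median length of the list's genes was 119 kb.

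The matrix genes had 40 distinct peaks. Besides Col14a1, Dcn, the small proteoglycan decorin, had peaks at 74.9, 52.6 and 12.6 kb and 1 inside. Timp3, a protease inhibitor gene that lies within Syn3, had 4, at 16.3 to 67.6 kb, and the same 4 lie inside Syn3. Lama4 and Col8a1 had 2 inside each. Has2, the hyaluronan synthase gene, had 1 at 4.09 kb, and Col12a1 had 3, at 47.2 to 96.7 kb.

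The GATA list itself, GATA factors and their partners, had 9 of 24 genes with a peak within 100 kb (37.5%, 18.8 to 59.4). Trps1, an atypical GATA repressor gene, had 3 inside, and Zfpm2, which encodes the cofactor FOG2, had 2 inside. Runx1, Runx2 and Tcf4 had 1 inside each. Gata3, which also restrains preadipocytes, had 1 at 9.68 kb. Gata2 (chr6:88193891-88207032) had 0 within 100 kb, and its nearest peak was 122 kb away.

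The regulators of fat cell formation had 11 of 33 genes within 100 kb (33.3%, 18.0 to 51.8), while the adipocyte enzymes and secreted proteins had 6 of 34 (17.6%, 6.76 to 34.5). Nfia, a factor of brown fat, had 2 peaks inside and 1 at 75 kb. Ppargc1a, a coactivator of mitochondrial genes, and Ebf3 had 1 inside each. Pparg, the nuclear receptor that drives the program, had 4 in all, 2 inside and others at 10.6 and 51.5 kb. Of the enzymes, 1 had a peak within 10 kb, Retsat, and Lpl, the lipoprotein lipase gene, had its nearest at 47.3 kb.

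Integrins and cadherins had 9 of 38 genes (23.7%), with peaks inside Itga8, Itga10, Itgb6, Cdh1 and Cdh3. Actin cytoskeleton genes also had 9 of 38, with 2 peaks inside Myh9, 2 inside the myosin kinase gene Mylk and 1 inside Cald1. Wnt signalling had 12 of 44 (27.3%), mesenchymal transcription factors 10 of 44 (22.7%), AP-1 and immediate early genes 6 of 32 (18.8%) and BMP and TGF-beta signalling 6 of 43 (14.0%). The intervals of these lists other than Wnt signalling, 15 to 42.8, include 13.8%.

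MicroRNA genes were matched through RefSeq hairpins. Of 1005 hairpins, 18 had a peak centre within 10 kb (1.79%). The pair Mir214 and Mir199a-2, which are made from a transcript opposite to Dnm3, was reached by 1 peak at chr1:162225913-162226023, 2.49 and 8.04 kb away and inside Dnm3. Mir100 was 7.86 kb from a peak at chr9:41523518-41523617. Their mature sequences are shown because these miRNAs are well known in mesenchymal cells, with the seed (bases 2 to 8) in capitals.
mmu-miR-214-3p: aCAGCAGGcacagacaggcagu
mmu-miR-199a-5p: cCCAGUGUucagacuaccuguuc
mmu-miR-199a-3p: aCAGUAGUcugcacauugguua
mmu-miR-100-5p: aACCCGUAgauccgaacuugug

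No pair of these 4 shares a seed. The nearest hairpin of all was Mir5110, 0.487 kb from a peak inside Bcas3. Mir7-1, inside Hnrnpk, was 4.62 kb from a peak, Mir217 was 6.92 kb and Mir582, inside Pde4d, was 9.62 kb.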

How the data were processed

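The authors deposited 1 peak list per cell line, with chromosome, start and end in bp and no score, so the only values are positions (a unit of none of the usual kinds). The submitters' processing notes name mm10, CASAVA 1.8, Bowtie2, SAMtools, bedtools and MACS2. Their roles and settings, and how libraries and input were combined, are not given in the sources used here. Read depth is unknown, so faint sites may be missing, and sites cannot be ranked by strength.

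Starts were shifted to count from 1. Distances ran from a peak's centre to the 21631 protein-coding genes of the RefSeq table (GRCm38.p6, the mm10 assembly), which gives no exons, so exon, intron and UTR positions are not stated. Overlap with the C3H10T1/2 list needed 1 bp. Shares carry exact Clopper-Pearson and densities exact Poisson intervals (95%), and no test was run. Lists in 16 roles were used, and 1 symbol, Cxcl11, was not matched. Genes were named by fixed ranks: the 15 loci with most peaks, 10 genes with most body peaks, 15 nearest boundaries, list members with a peak, 10 runs, 10 widest and 5 narrowest peaks, the 5 farthest, 10 families and promoters with a peak. Dense windows, miRNAs, printed promoters and further families were named after their values were seen. A few genes that these ranks select are not reported here. The members and lists were chosen with earlier results of these data known. Placement code was tested on simulated data. Tools were Python 3.11.15, pandas 2.3.3, NumPy 2.4.6, SciPy 1.17.1 and matplotlib 3.10.9. Alternatives were other windows and spacings, all rows of the list, merged sites within 1 kb and peaks of at least 144 bp.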

Additional observations from a re-analysis of the deposited data

How the results depend on the processing

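No paired analysis was possible because each line has 1 list and no replicate values. For the same reason no replicate could be left out. The count of 1991 peaks (2445 with all rows, 1955 with close peaks merged), the width, the share in gene bodies and the motif share stayed within 1.5 times or within their intervals. The share near boundaries was 10.5% within 5 kb. The share beyond 100 kb was 22.3% with all rows. The share with a neighbour was 13.2% within 10 kb, 30.4% within 50 kb and 34.3% with all rows. The number of genes with a peak was 850 within 10 kb, 1330 by nearest gene and 1651 (7.63% of genes) with the 1013 peaks of at least 144 bp.

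List counts fell with the smaller window by its construction. Within 10 kb, beside 3.93% of all coding genes, they were 7 of 24 for GATA factors and cofactors, a list that includes Runx and Tcf genes. They were 7 of 33 for adipogenic regulators and 1 of 34 for adipocyte enzymes. They were 2 of 32 for AP-1, 4 of 38 for actin, 5 of 40 for cytokines, 5 of 33 for growth factors and 3 of 36 for receptor kinases. Axon guidance had 8 of 56, integrins and cadherins 5 of 38, mesenchymal factors 2 of 44 and Wnt 5 of 44. BMP had 1 of 43, matrix 8 of 52, ribosomal 1 of 69 and synapse genes 3 of 40. With the wider peaks, beside 7.63% of all coding genes, counts out of the same totals were 5 for GATA factors and cofactors. Adipogenic regulators had 7. They were 2 for adipocyte enzymes, 3 for AP-1, 4 for actin, 11 for cytokines, 12 for growth factors and 3 for receptor kinases. Axon guidance, integrins and cadherins, mesenchymal factors, Wnt and BMP had 5 each. Matrix had 18, ribosomal 3 and synapse genes 3. Leaving out runs of 3 or more peaks, chosen after seeing the data, left 20 of the 20 values recomputed within these limits. The share with a neighbour within 20 kb, which leaving out runs lowers by construction, was not among them. The width, the share beyond 100 kb and the motif share were also not recomputed.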
